A study of Mus musculus with 8 samples.

Results

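Apod, Spock2, Far2, Htra3, Vwa1, Ttyh2, Pglyrp1 and Cd83 are 8 of the 18193 mouse genes measured in GFP-positive cells sorted from embryonic cortex and lung. They were chosen by measured values of these same arrays: each lay higher in cortex than in lung, and each had a positive slope on the mean of endothelial genes across the cortex arrays, which for Cd83 rested on 1 array, Cortex 18. Both properties are therefore given as a description for these 8 genes. Calls, intervals and standard errors printed for them are not read as tests. Each gene was read from the probe set annotated to that gene alone that had the highest mean over the 8 arrays.

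All cells came from homozygous Tie2-GFP transgenic mouse embryos of the Jackson strain 003658 at stage E13.5, in which the promoter of Tek (Tie2), an endothelial receptor gene, drives green fluorescent protein. No genotype or treatment separated the groups, which were 4 cortex samples, dissected free of meninges and choroid plexus, and 4 lung samples. Each sample pooled a whole litter of 10 to 13 embryos, so the spread between samples is that between pooled litters and not between embryos. The promoter is also active in some blood-forming cells and macrophages, so the sort does not select endothelial cells alone.

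Expression values are on a log2 scale, on which a difference of 1 is a factor of 2. The samples of both tissues carried the numbers 72, 22, 19 and 18, and values are given below in that order. For the 4 samples numbered 19 and 18 the free-text description named the other tissue, whereas the title and the tissue label gave the same tissue. The values of these arrays went with their titles: the mean of a list of neural genes was 11.08 to 11.62 on the cortex arrays and 5.99 to 6.26 on the lung arrays. All 23 measured neural genes were called higher in cortex, and fibroblast and meningeal genes were mostly higher in lung, 8 called in that direction against 1. The sorted cortex samples thus carried neural transcripts as well, and the cells they came from were not tested.

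The mean of 26 pan-endothelial genes, which include Tek, Pecam1 and Cdh5, was 9.53, 10.84, 10.96 and 9.09 in cortex and 11.54, 11.58, 11.66 and 11.09 in lung. The endothelial mean was thus uneven over the cortex arrays and steadier over the lung arrays. The mean of Tek, Tie1, Pecam1 and Cdh5 alone ran from 9.03 to 10.97 in cortex and from 10.7 to 11.88 in lung, with Lung 18 lowest. Tek itself was 11.70 ± 0.84 in cortex and 12.93 ± 0.28 in lung (SD, n = 4), a difference of -1.24 that was not called (limma, adjusted p = 0.0575). Tek was called lower in cortex in 6 of 16 alternatives: without dim genes, with arrays centred on their medians, with array quality weights, with the replicate block (adjusted p = 0.026), and without Cortex 22 or Cortex 19. In sorted pools, fewer endothelial cells and less endothelial RNA per cell cannot be told apart. Without the arrays numbered 19 and 18, the members' cortex minus lung differences were 3.20 to 6.46.

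Blood vessels of the brain form a barrier, in which endothelial cells are joined by tight junctions, carry dedicated transporters and rest on a shared basement membrane. Vessels of the embryonic lung lack this barrier programme. The 8 genes have diverse roles. Apod encodes apolipoprotein D, a secreted lipocalin that carries small hydrophobic molecules such as arachidonic acid. Spock2 encodes testican-2, a secreted proteoglycan of the SPARC family, and Vwa1 encodes a von Willebrand factor A domain protein of basement membranes that binds perlecan. Htra3 encodes a secreted serine protease of the HtrA family. Far2 encodes a fatty acyl-CoA reductase, which makes fatty alcohols. Ttyh2 encodes a membrane protein of the tweety family, Pglyrp1 a secreted protein that binds bacterial peptidoglycan, and Cd83 an immunoglobulin-type membrane protein best known from mature dendritic cells.

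Of the secreted and matrix genes, Apod (probe set 1416371_at, chr16:31296192-31314808) stood at 11.47, 13.06, 12.81 and 11.13 in cortex; gene positions are those of the RefSeq build GRCm38.p6. On the lung arrays it stood at 5.91, 5.70, 5.31 and 7.05. The lowest cortex value lay 4.08 above the highest lung value, and the difference of the means was 6.12 (SE 0.52, 95% interval 4.94 to 7.31), a 69.7-fold ratio. It ranked 24 of 18193 by the size of the difference towards cortex, the highest place among the 8.

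Spock2 (1435026_at, chr10:60106257-60135198) measured 12.24, 13.44, 13.27 and 12.06 in cortex and 7.57, 6.95, 7.65 and 6.28 in lung. The groups were separated by 4.41, the widest gap among the 8 genes, and differed by 5.64 (SE 0.41), or 49.8-fold. Vwa1 (1426399_at, chr4:155768495-155774693) measured 10.48, 11.46, 11.29 and 9.44 in cortex and 6.65, 6.05, 6.51 and 5.98 in lung, with an SD of 0.33 over the lung arrays, the smallest of the 8. Its difference was 4.37 (SE 0.42), or 20.6-fold, and the groups were 2.79 apart. Htra3 (1419292_at, chr5:35652026-35679813) measured 11.68, 12.65, 12.61 and 11.43 in cortex against 8.07, 7.06, 7.32 and 7.55 in lung. Its difference was 4.59 (SE 0.34), or 24.2-fold, the smallest standard error of the 8, and no lung array came within 3.36 of a cortex array.

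The fatty acyl-CoA reductase gene Far2 (1455889_at, chr6:148047416-148182758) measured 9.57, 11.30, 11.06 and 9.16 in cortex and 6.27, 5.17, 5.16 and 5.57 in lung. The tissues were 2.89 apart at their nearest, with a difference of 4.73 (SE 0.51), or 26.5-fold. Ttyh2 (1434500_at, chr11:114675468-114720984) measured 11.68, 13.12, 12.75 and 11.43 in cortex and 9.46, 8.66, 8.97 and 7.87 in lung. Its tissue difference was 3.50 (SE 0.45), or 11.3-fold, with the groups 1.96 apart.

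The peptidoglycan-binding gene Pglyrp1 (1449184_at, chr7:18884690-18890438) measured 10.03, 11.89, 11.20 and 9.75 in cortex and 8.02, 6.25, 7.68 and 7.76 in lung. It differed by 3.29 (SE 0.55, 95% interval 2.05 to 4.54), or 9.79-fold, with a gap of 1.73 between the groups. Cd83 (1416111_at, chr13:43785112-43803133) measured 11.52, 11.56, 11.79 and 9.28 in cortex and 9.06, 7.62, 8.08 and 6.58 in lung. Here the tissues nearly met, with a gap of 0.22 between Cortex 18 and Lung 72, and the difference was 3.21 (SE 0.66, 95% interval 1.69 to 4.72), or 9.22-fold. Cd83 ranked 347 by difference, the lowest of the 8.

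**Figure D1:**
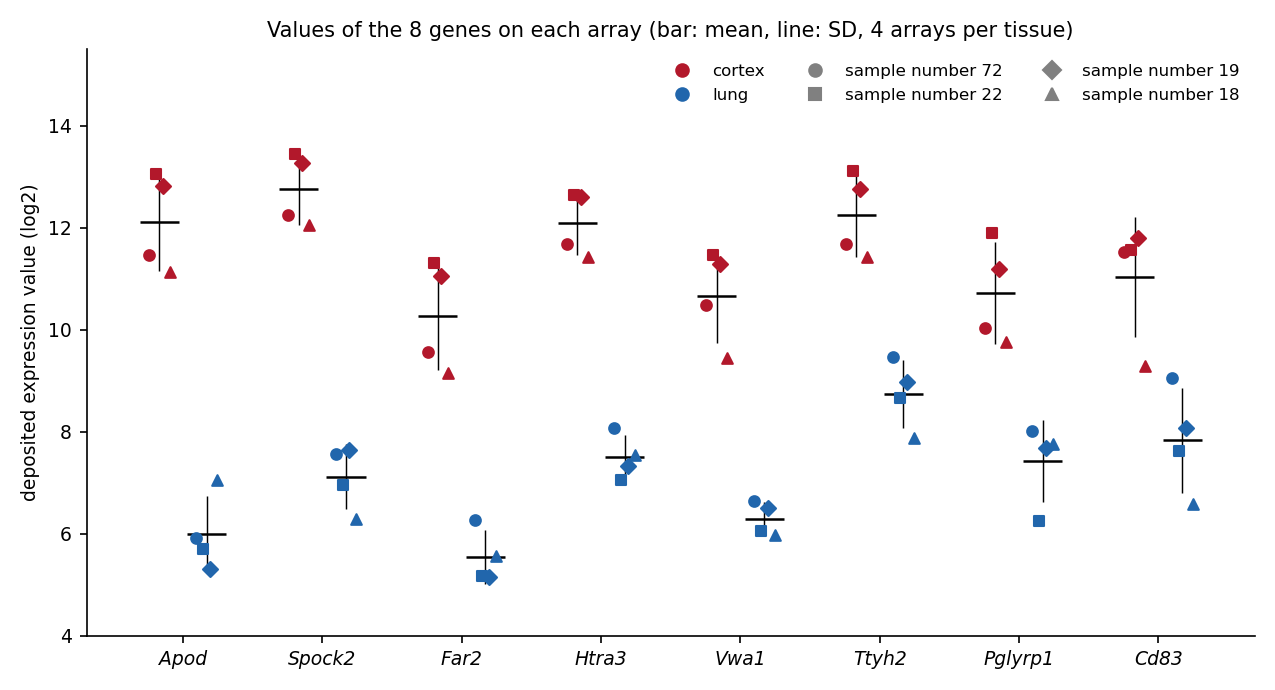
Deposited log2 values of the 8 genes on each of the 4 cortex and 4 lung arrays, with the sample number shown by the marker and the mean ± SD by bar and line. Every cortex array lies above every lung array for each gene, with gaps from 0.22 for Cd83 to 4.41 for Spock2.

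All 8 genes were called higher in cortex (limma, adjusted p under 0.05), against a background of 10.4% of all genes, and all 8 had every cortex array above every lung array, against 12.5% of all genes. Their selection used this contrast, so nothing is read from these counts. On the arrays numbered 72 and 22 alone, 458 of all 18193 genes were called higher in cortex. Of the 8, 5 were called there, and Ttyh2, Pglyrp1 and Cd83 were not. These arrays are among those that chose the genes, so that count is a description too. The median difference was 4.48 over the 8 genes and -0.09 over all 18193, and the differences of the 8 ran from 3.21 to 6.12. In the same fit 7.71% of all genes were called higher in lung. Values near the lower end of the scale are compressed, so folds against low lung values understate the ratio.

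Promoter windows of the 8 genes were looked up in the RefSeq table of promoters (build GRCm38.p6), which runs from 250 bases before to 50 after the start of each gene and held 6 of the 8; Vwa1 and Cd83 were not in it. Short motifs of factors active in endothelial cells were searched on both strands: CTTTGAA or CTTTGAT for TCF/LEF, AGGAAG or CGGAAG for ETS, TGTTTAC or TGTTTGC for forkhead, ACAATG or ACAAAG for SOX, and AGATAA for GATA. Those of 3 genes are shown: Apod and Spock2 had the 2 largest differences between tissues, and the Pglyrp1 window held the most kinds of motif. Capitals mark the motif matches, and each window is written 5′ to 3′ along the gene's strand.
Apod, chr16:31314759-31315058, minus strand: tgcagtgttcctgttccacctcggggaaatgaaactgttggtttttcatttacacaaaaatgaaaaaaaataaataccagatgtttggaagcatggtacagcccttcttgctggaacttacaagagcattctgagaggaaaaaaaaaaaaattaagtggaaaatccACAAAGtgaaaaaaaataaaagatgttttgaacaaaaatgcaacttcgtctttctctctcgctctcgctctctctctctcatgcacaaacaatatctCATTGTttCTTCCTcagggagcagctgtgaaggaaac
Spock2, chr10:60106007-60106306, plus strand: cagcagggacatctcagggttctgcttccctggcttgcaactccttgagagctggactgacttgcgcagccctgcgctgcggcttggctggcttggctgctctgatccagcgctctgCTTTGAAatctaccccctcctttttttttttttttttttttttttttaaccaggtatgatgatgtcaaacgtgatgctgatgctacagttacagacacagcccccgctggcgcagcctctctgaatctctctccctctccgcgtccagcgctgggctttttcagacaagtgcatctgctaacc
Pglyrp1, chr7:18884440-18884739, plus strand: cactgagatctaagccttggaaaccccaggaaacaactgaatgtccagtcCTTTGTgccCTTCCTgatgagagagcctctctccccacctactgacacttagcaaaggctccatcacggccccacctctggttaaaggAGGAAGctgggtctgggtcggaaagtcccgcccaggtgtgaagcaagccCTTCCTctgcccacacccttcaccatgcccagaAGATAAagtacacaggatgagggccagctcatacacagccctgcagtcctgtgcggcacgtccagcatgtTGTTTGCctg

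The Spock2 window held 1 match to TCF/LEF, CTTTGAA at -133 from the start, and was the only member window of 6 with one, against 8.65% of all 32851 windows. ETS letters were in 5 of 6 member windows and in 46.5% of all windows, and SOX letters in 3 of 6 against 28.6%. Forkhead letters were in 1 window, that of Pglyrp1 at position 41 (TGTTTGC), against 8.48%, and GATA letters in 1, again Pglyrp1, at -30, against 11.2%. A match is a description of letters only.

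The slope of a gene on the pan-endothelial mean over the cortex arrays gives the change in log2 value per 1 log2 of endothelial signal. Slopes of the 8 genes were 1.01 for Apod (SE 0.12), 0.74 for Spock2 (0.09), 1.13 for Far2 (0.12), 0.67 for Htra3 (0.04), 0.94 for Vwa1 (0.22), 0.85 for Ttyh2 (0.15), 1.01 for Pglyrp1 (0.26) and 0.96 for Cd83 (0.57). The median was 0.95 over the 8 genes and -0.05 over all genes, and all 8 were above 0.5 against a background of 6.56%. The slopes chose the genes and support nothing. Cortex 22 held the highest cortex value of 7 genes and Cortex 19 that of Cd83, and Cortex 18 held the lowest value of all 8.

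Subtracting the pan-endothelial mean from each cortex value left an SD of 0.16 for Apod in place of 0.96, 0.20 for Far2 in place of 1.07 and 0.25 for Ttyh2 in place of 0.82. It left 0.27 for Spock2 (from 0.70), 0.29 for Vwa1 (from 0.92), 0.31 for Htra3 (from 0.63) and 0.34 for Pglyrp1 (from 1.0). Cd83 kept the largest spread, 0.76 from 1.18. A smaller SD follows from choosing genes by their slope on that mean, so these values are a description.

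**Figure D2:**
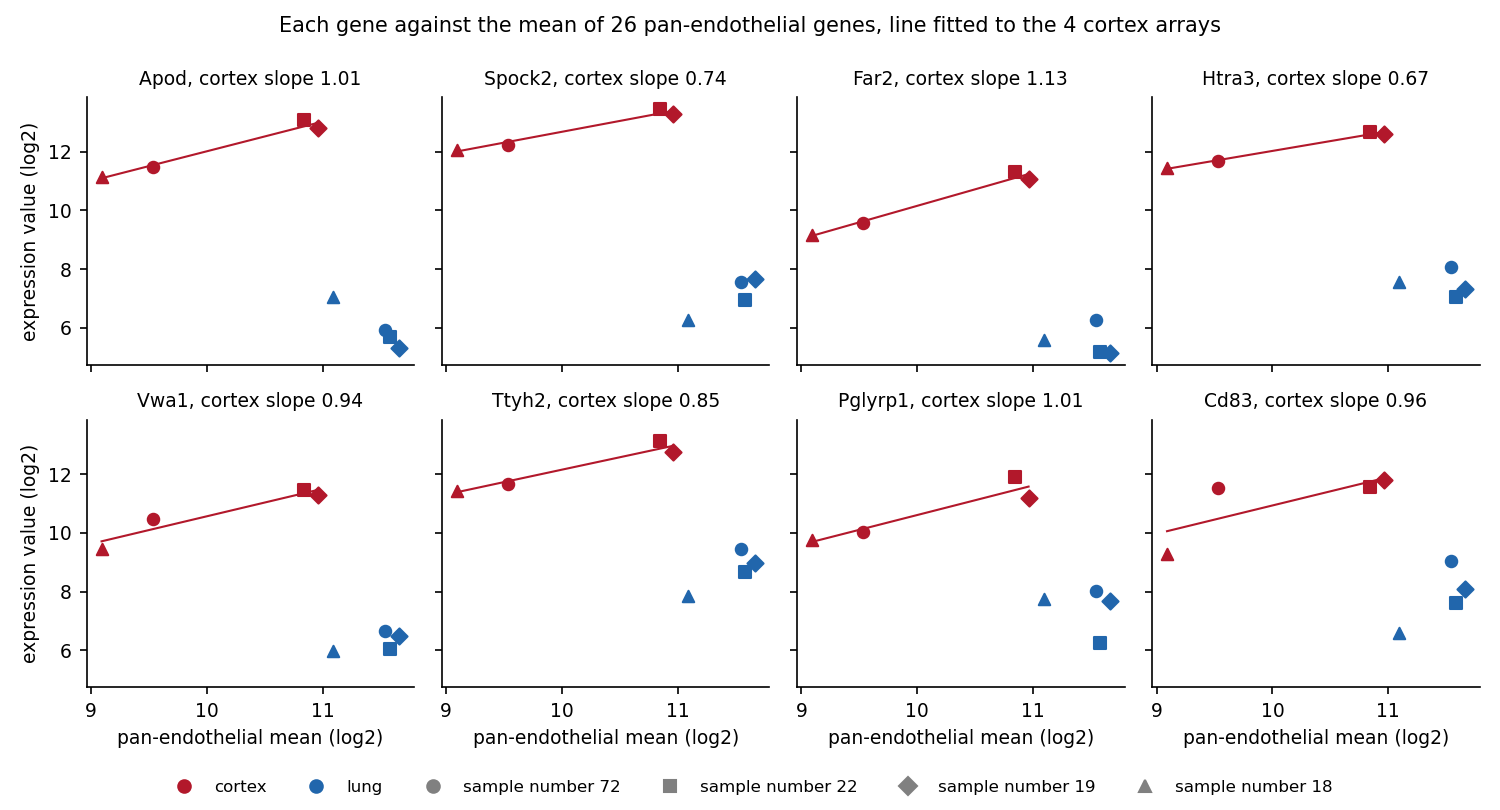
Each gene's log2 value against the mean of 26 pan-endothelial genes on the same array, with a line fitted to the 4 cortex arrays. Slopes run from 0.67 for Htra3 to 1.13 for Far2, and the Cd83 point of Cortex 18, at 9.28, lies far below its other cortex points.

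Markers of macrophages and microglia moved on the cortex arrays as well. The mean of 13 such genes was 8.61, 8.21, 8.97 and 5.67 in cortex and 6.44, 5.64, 5.94 and 5.18 in lung, and 5 of the 13 were called higher in cortex. At an unadjusted p under 0.05 in limma, 11 were higher in cortex and 0 in lung. Their cortex slope on the pan-endothelial mean was above 0.5 for 12 of the 13, with a median of 1.19. A slope above 0.5 thus does not tell endothelial from macrophage genes. Neural genes were 11.54, 11.22, 11.08 and 11.62 in cortex, opposite in order to the endothelial mean. Granulocyte genes had means of 4.87 to 4.98 in cortex and 4.89 to 5.31 in lung, and dendritic and lymphoid genes of 5.62 to 5.92 and 5.97 to 6.65. Pericyte and smooth muscle genes had means of 6.81 to 7.02 in cortex and 6.85 to 8.39 in lung, and choroid plexus genes of 6.78 to 7.85 and 6.65 to 7.09. Of the latter, the transthyretin gene Ttr stood at 13.06, 10.67, 13.05 and 7.30 in cortex and 5.12 to 6.73 in lung, a difference of 5.08 (limma, adjusted p = 0.0187) with a cortex slope of 1.55. Ttr was named after its values were seen, and it does not stand for its list. Of the 5 measured choroid plexus genes, limma called 2 higher in cortex and 1 in lung, and 2 were not called. Otx2 differed by 3.32 with a cortex slope of -0.64, Aqp1 by -5.45, Kl by -0.63 and Folr1 by 0.19. The part that any of these cells has in the values of the 8 genes was not tested.

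A pair of array comparisons set endothelial and macrophage markers apart. From Cortex 72 to Cortex 22 the endothelial mean was higher by 1.31, the macrophage mean was -0.40 and the neural mean -0.32. Over that step Apod was higher by 1.58, Spock2 by 1.21, Far2 by 1.73, Htra3 by 0.97, Vwa1 by 0.99, Ttyh2 by 1.44 and Pglyrp1 by 1.86, and Cd83 by 0.04. Between Cortex 18 and Cortex 72 the macrophage mean was higher by 2.94 on the latter and the endothelial mean by 0.44. The mean of Tek, Tie1, Pecam1 and Cdh5 alone was higher by 0.78. There Cd83 was higher by 2.24 and Vwa1 by 1.04, whereas the other 6 genes differed by 0.17 (Spock2) to 0.41 (Far2). From Cortex 18 to Cortex 19 both marker means were higher, by 1.87 for endothelial and 3.3 for macrophage genes, so that step does not set them apart. The genes were chosen by their slope over these arrays, so the steps are a description.

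**Figure D3:**
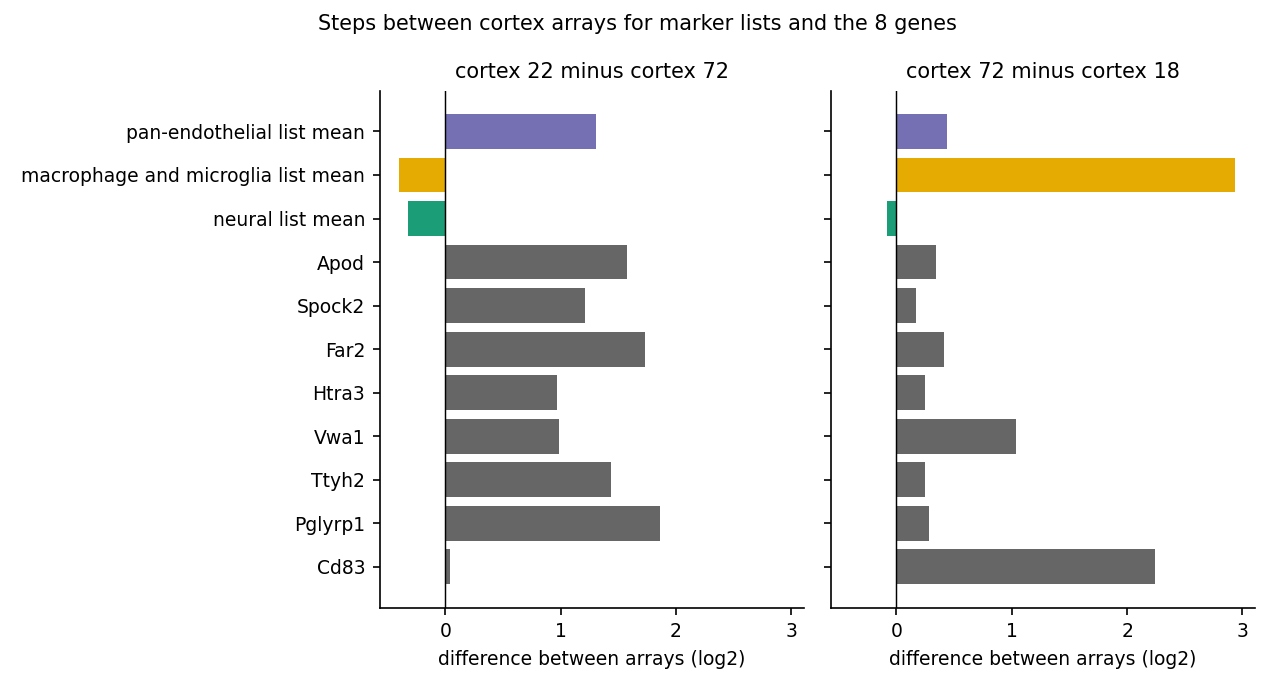
Log2 differences between pairs of cortex arrays, for the means of the 3 marker lists and for each of the 8 genes. From 72 to 22 the endothelial mean differs by 1.31 and Cd83 by 0.04, and from 18 to 72 the macrophage mean differs by 2.94 and Cd83 by 2.24.

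Slopes on the macrophage mean over the 4 cortex arrays were 0.78 (SE 0.08) for Cd83 and 0.29 to 0.52 for the other 7. The Cd83 slope on the endothelial mean was 0.12 when Cortex 18 was left out, that of Vwa1 was 0.64 and the median over the 8 was 0.85. Slopes without Cortex 18 reuse arrays that chose the genes, so they are a description. Macrophage genes that were also low on Cortex 18 were the colony-stimulating factor receptor gene Csf1r (11.31, 10.63, 11.18 and 6.89 in cortex) and the complement gene C1qb (11.07, 10.73, 11.33 and 7.08). These 2 were named after their values were seen.

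Over the lung arrays the endothelial mean spanned only 0.57, with Lung 18 lowest, so slopes there rest on that array. They were above 0.5 for 4 genes, 2.17 for Spock2, 0.79 for Vwa1, 2.09 for Ttyh2 and 2.94 for Cd83, and below 0 for 4, with Apod lowest at -2.87. Of all genes, 30.8% had a lung slope above 0.5. Without Lung 18 the slopes of Vwa1, Ttyh2 and Cd83 turned negative, at -0.18, -2.97 and -6.19, and that of Pglyrp1 turned from -0.83 to 0.13. Far2 moved from -0.37 to -7.83 and Htra3 from -0.31 to -4.87, Apod was at -4.88 and Spock2 at 1.84, and the median over the 8 moved from 0.24 to -3.92. The signs also depended on the endothelial list. With the mean of Tek, Tie1, Pecam1 and Cdh5 as the axis, Far2 was at 0.04, Htra3 at 0.03 and Vwa1 at 0.45. Apod and Pglyrp1 stayed negative there, at -1.26 and -0.15. The lung arrays thus gave no common direction.

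Other probe sets annotated to the same genes gave smaller differences. Of 14 probe sets in all, Vwa1, Pglyrp1 and Cd83 had 1 each. For Apod a dimmer probe set (1444564_at) gave 8.14 ± 1.05 in cortex and 6.68 ± 1.61 in lung, with lung values from 4.75 to 8.32 that overlapped those of cortex, and a difference of 1.46. The second probe set of Spock2 (1450451_at) differed by 2.27 and that of Far2 (1435621_at) by 3.13. Htra3 gave 1.82 on 1427029_at and -0.18 on 1431762_at, which was near the bottom of the scale in both tissues (3.74 and 3.93). Ttyh2 gave 0.20 on 1421179_at. Cortex slopes of these probe sets were 1.03 for Apod, 1.14 for Spock2, 1.28 for Far2, 0.91 and 0.02 for Htra3 and 0.50 for Ttyh2. With the mean of all probe sets of a gene, the differences were 3.79 for Apod, 2.08 for Htra3 and 1.85 for Ttyh2.

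Being called higher in cortex together with a cortex slope above 0.5 was met by 65 genes, 0.357% of all. Ordered by difference, the 8 genes held places 1, 4, 8, 9, 11, 16, 17 and 18 of the 65. Of the 65, 12 were on a list of 30 brain endothelial genes and 5 on the macrophage list of 13. Of the rest outside the 8, 1 was the pericyte gene Rgs5, 1 the choroid plexus gene Ttr and 38 were on no list. The 38, such as Ccl3, Mpeg1, P2ry12, Slc38a3 and Stra6, were not assigned to a cell type. The lists differ in length and do not hold every gene of a cell type, so these counts do not rank cell types. None of the 65 was on the neural or the pan-endothelial list. No neural gene had a cortex slope above 0.5. No pan-endothelial gene was called higher in cortex by limma, also at an unadjusted p under 0.05. Of the 26, 8 were called higher in lung, and 17 were higher in lung at an unadjusted p under 0.05.

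**Figure D4:**
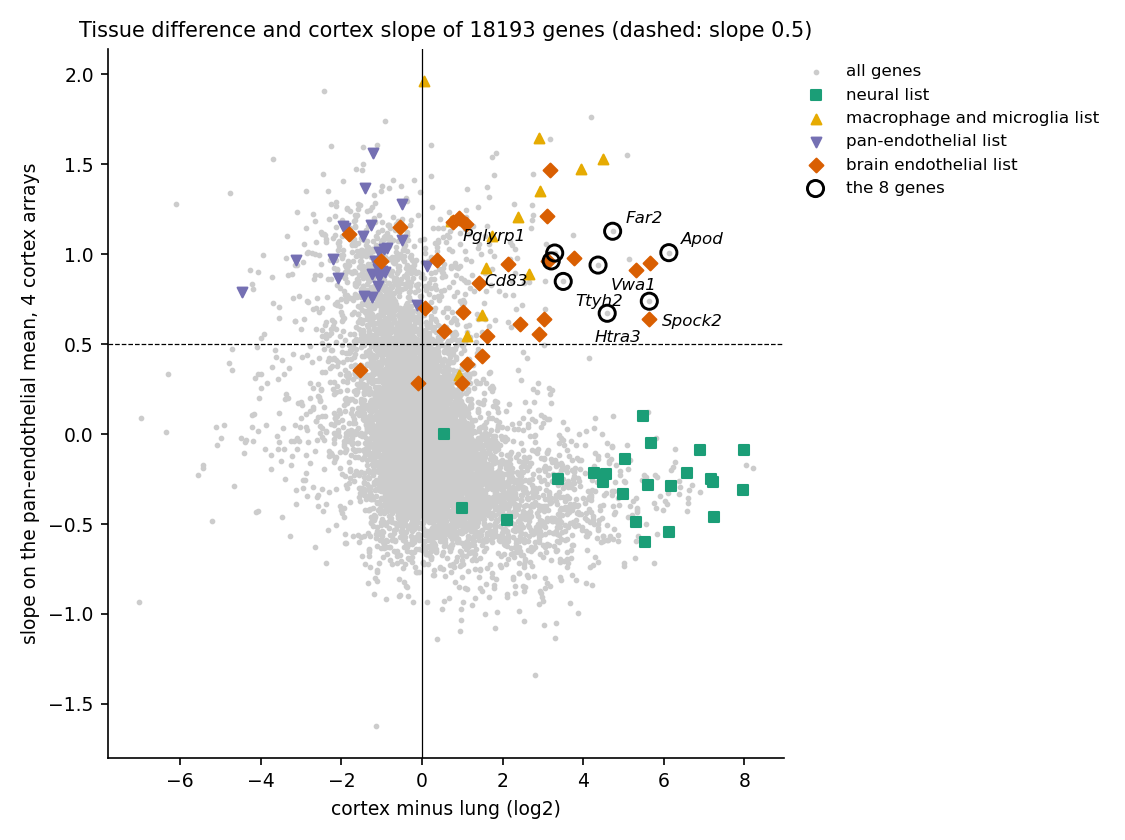
Cortex minus lung difference (log2) against the slope on the pan-endothelial mean over the 4 cortex arrays, for 18193 genes, with 4 gene lists in colour and the 8 genes circled. The 8 lie at upper right, with differences from 3.21 to 6.12 and slopes from 0.67 to 1.13, near brain endothelial and macrophage genes, and neural genes overlap them in difference and lie below them in slope.

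Likeness over the 8 arrays was measured as the root mean square difference between profiles centred on each gene's own mean. Outside the 8, the profile nearest to their mean was that of Slc22a8, an organic anion transporter, at 0.44, followed by the iron exporter Slc40a1 at 0.50, Sox3 and Foxl2os at 0.61, the lipid transporter Mfsd2a and Rnf180 at 0.63, Trim2 at 0.67 and Csrnp3 at 0.68. Their cortex slopes differed: 0.98 for Slc22a8, 1.11 for Slc40a1, 0.97 for Foxl2os and 0.64 for Mfsd2a, and between -0.12 and 0.10 for Sox3, Rnf180, Trim2 and Csrnp3. The measure is dominated by the tissue difference, so genes level over the cortex arrays can be near.

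Taken one by one, the nearest gene outside the 8 was Slco1c1, a thyroid hormone transporter, for Apod (0.50), Mfsd2a for Spock2 (0.30) and Far2 (0.58), Sox3 for Htra3 (0.47), Slc22a8 for Vwa1 (0.44) and Ttyh2 (0.37), the membrane transporter gene Flvcr2 for Pglyrp1 (0.30) and Tmem51 for Cd83 (0.48). Among the 8, Vwa1 was nearest to their mean (0.16) and Apod farthest (1.02). Far2 and Htra3 were the closest pair (0.29) and Apod and Cd83 the farthest (1.84).

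Genes related to the 8 by family or pathway were tested in the fit over all genes. Of the brain endothelial list, 28 of 30 were measured: 14 were called higher in cortex, 2 in lung and 12 were not called, with a median difference of 1.27. Slco1c1 was 11.64 ± 0.94 in cortex and 6.0 ± 0.20 in lung, a difference of 5.64 (adjusted p = 4.53e-05), and Mfsd2a 12.31 ± 0.63 against 6.67 ± 0.48, also 5.64 (adjusted p = 1.92e-05). The glucose transporter gene Slc2a1 was higher in cortex by 0.99 (adjusted p = 0.00883). In the other direction Adgra2 and Reck, whose products take part in Wnt7 reception, were at -1.81 and -1.54 (adjusted p = 0.0342 and 0.0109), the Adgra2 call ending without Cortex 72 or any 1 lung array. The cortex slope was above 0.5 for 23 of the 28.

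The matrix relatives of Spock2 and Vwa1 were called in both directions. Of 7 testican and SPARC family genes, 2 were called higher in cortex, the testicans Spock1 (1.55, adjusted p = 0.00342) and Spock3 (1.21, adjusted p = 0.0365), and 2 higher in lung, Fstl1 (-1.96, adjusted p = 0.00282) and Smoc2 (-0.49, adjusted p = 0.0479). Over the cortex arrays the slopes of these testicans were -0.38 for Spock1 and -0.66 for Spock3, against 0.74 for Spock2. The Spock3 call ended on leaving out any array but Cortex 22, and the Smoc2 call any but Lung 72. Of 16 basement membrane genes, 6 were called higher in lung and none in cortex, with a median of -0.81; at an unadjusted p under 0.05 the counts were 8 and 0. The collagen VI genes Col6a1 (-3.26, adjusted p = 0.00245) and Col6a3 (-2.58, adjusted p = 0.0286) had the largest differences, the Col6a3 call ending without Cortex 72, 22 or 18 or Lung 72, 22 or 19. The count of 6 fell to 3 without Cortex 72, Lung 72, Lung 22 or Lung 19 and to 4 without Cortex 18 or Lung 18.

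Of the HtrA proteases other than Htra3, Htra1 was lower in cortex, at 9.66 ± 0.95 against 11.77 ± 0.54 (-2.11, adjusted p = 0.0156), opposite to Htra3. Htra2 (-0.24, adjusted p = 0.405) and Htra4 (-0.18, adjusted p = 0.372) were not called. Of 13 apolipoprotein and lipocalin genes, 0 were called by limma, while 1 was higher in cortex and 2 in lung at an unadjusted p under 0.05. Without Cortex 22, 1 was called higher in cortex. The largest difference among them was that of the prostaglandin D synthase gene Ptgds, at -0.92 (adjusted p = 0.0537). It was called in 6 of 16 alternatives: with the probe set of largest variance, the mean of all probe sets, the filter on dim genes, median centring and array quality weights, and without Lung 72, at adjusted p from 0.0135 to 0.0402.

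Of 12 measured genes of fatty alcohol and ether lipid synthesis, 3 were called higher in lung and none in cortex, with a median of -0.28; at an unadjusted p under 0.05, 3 were higher in lung and 2 in cortex. The elongase genes Elovl7 (-2.33, adjusted p = 0.0024) and Elovl1 (-1.23, adjusted p = 0.0239) were among them, the Elovl1 call ending without Cortex 72 or Lung 72, 22 or 18. With any 1 array left out, the count in lung fell to between 1 and 2. It was 1 without Lung 72, when 3 were called higher in cortex. Far1, the paralogue of Far2, differed by 0.32 (adjusted p = 0.165).

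Of 11 tweety and chloride channel genes, 3 were called higher in cortex and 1 in lung. Ttyh1, a neural paralogue of Ttyh2, was 12.11 ± 0.42 in cortex and 7.57 ± 0.80 in lung, a difference of 4.54 (adjusted p = 0.000103). It differed from Ttyh2 over the cortex arrays: 12.18, 12.44, 11.50 and 12.32, a slope of -0.20 against 0.85. Clcn2 was also higher in cortex (1.32, adjusted p = 0.0118), Lrrc8c higher in lung (-1.34, adjusted p = 0.00988), and Ttyh3 was not called (0.33, adjusted p = 0.0836), though it was with array quality weights (adjusted p = 0.0288).

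Of 11 measured genes that sense bacterial products, 2 were called higher in lung and none in cortex, with 4 and 0 at an unadjusted p under 0.05; without Cortex 18, 1 was called in cortex. Lbp, the lipopolysaccharide-binding protein gene, was 6.28 ± 0.21 in cortex and 10.33 ± 0.20 in lung (-4.05, adjusted p = 2.01e-06), and the adaptor gene Myd88 differed by -1.86 (adjusted p = 0.0113). Pglyrp2 differed by -0.41 (adjusted p = 0.124), and Pglyrp3 and Pglyrp4 were not analysed here. None of 15 genes of the CD83 and antigen presentation list was called by limma, with 0 higher in cortex and 1 in lung at an unadjusted p under 0.05. Relb, at -1.19 (adjusted p = 0.0563), was the largest, and was called without Cortex 19 (adjusted p = 0.0406) or Cortex 18 (adjusted p = 0.0456), with median centring and with array quality weights.

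**Figure D5:**
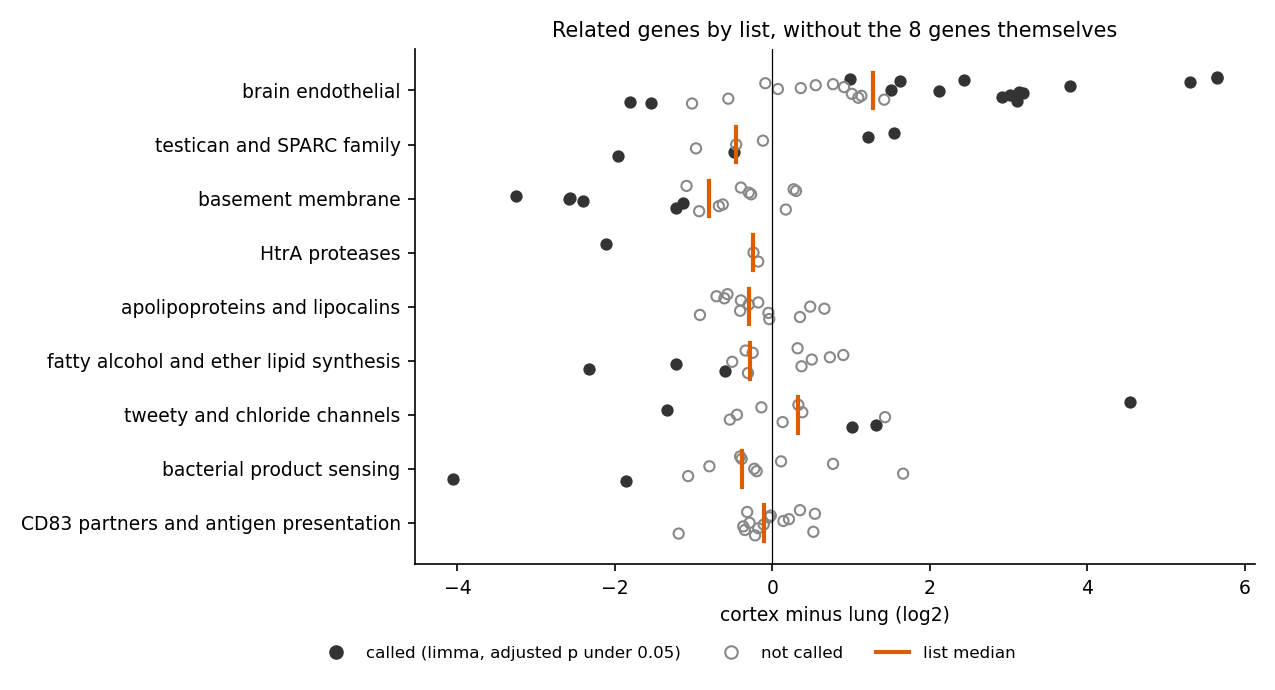
Cortex minus lung differences (log2) of the genes of each family or pathway list without the 8 genes, filled where called by limma at an adjusted p under 0.05, with the list median as an orange line. Brain endothelial genes have a median of 1.27 and basement membrane genes one of -0.81.

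These directions are relative to the whole array. With all arrays set to a common pan-endothelial mean, the median of all genes moved by 1.36, from -0.09 to 1.27, and 8045 genes were called higher in cortex against 137 in lung, where the values as deposited gave 1888 and 1403. The members' differences were then 4.56 for Cd83 to 7.48 for Apod. Under that scaling basement membrane genes gave 3 calls towards cortex and 1 towards lung, Fstl1, Col6a3, Htra1, Elovl7, Myd88, Adgra2 and Reck were not called, and Smoc2, Elovl1 and Lrrc8c changed sign without a call. Col6a1 and Lbp stayed lower in cortex, at -1.91 and -2.69, and the Far1 and Ttyh3 differences of 1.68 and 1.69 were called higher in cortex. Under that scaling near-equal differences gave near-equal limma adjusted p, 0.0167 for Far1 and 0.0158 for Ttyh3. Slco1c1 and Mfsd2a, each at 7.0, gave 1.34e-30 and 1.38e-30. Calls under that scaling thus act as a cutoff on the difference and do not weigh each gene's own spread. Without the arrays numbered 19 and 18, 3 brain endothelial genes were called higher in cortex and 2 basement membrane genes higher in lung.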

How the data were processed

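Affymetrix Mouse Genome arrays had been hybridised with linearly amplified RNA of the sorted cells, from 15 to 30 ng, per the labels' protocols. Values were deposited by the authors as log2 expression, 1 per probe set and array, and the submitters' processing notes name RMA and affy, with no version in the sources used here. RMA corrects background, normalizes arrays by quantiles and compresses low values. The lowest value was 2.82 and the highest 15.22. Array medians lay between 6.59 and 6.72. Precision is limited by having 4 arrays per tissue.

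All 8 columns were mapped by sample identifier and 0 left out. After leaving out 64 control probe sets, 34945 of 45037 named 1 gene, 932 several and 9160 none. The highest-mean probe set represented each of 18193 genes. The tissue test used lmFit and eBayes of limma 3.58.1 (R 4.3.3), two-sided and without a block. P-values were adjusted by Benjamini-Hochberg over all genes, and genes were called at an adjusted p under 0.05. The fit was tested on simulated data. Slopes are least-squares.

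The 8 genes, the lists and the tests were chosen with earlier results of these data known. Genes named beside the 8 are the 8 nearest profiles, up to 2 nearest per gene, family paralogues, endothelial references and, per list, the 2 largest called differences in each direction, or the largest difference where none was called. Alternatives were the probe set rule, a filter on dim genes, scaling, array weights, the replicate block, the endothelial list and leaving out arrays.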

Additional observations from a re-analysis of the deposited data

Results flagged for a closer look

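Cd83 on the array Cortex 18 stood at 9.28, against 11.52 to 11.79 on the other cortex arrays. The gap to the nearest other array was 0.892 of the whole range of the 4, above Dixon's 95% critical value for 4 samples. It was the only one past that value among the 16 groups examined, 8 genes in 2 tissues. Chance passes about 1 group in 20 where genes are not chosen by their values. These genes were chosen by their slope over the cortex arrays, where Cortex 18 had the lowest endothelial mean. That rate therefore does not hold for the cortex groups, and the gap is a description. The macrophage and microglia list was lowest on the same array, with a mean of 5.67. The part of these cells in the Cd83 value was not tested.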

How the results depend on the processing

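Of the 17 settings, the 8 differences stayed positive in each, from 1.85 for Ttyh2 to 7.48 for Apod. The genes were chosen by this contrast on these same arrays, so the positive signs support nothing. Pan-endothelial scaling shifts the difference of every gene by the same amount. The median of 4.48 moved to 3.54 with the mean of all probe sets of a gene and to 5.84 with pan-endothelial scaling. Genes called numbered 3291, but 8182 with pan-endothelial scaling (8045 towards cortex, 137 towards lung) and 655 without the arrays numbered 19 and 18 (458 and 197), when 8 pathway genes were called in place of 36. With array quality weights 2233 were called higher in lung in place of 1403. Centring arrays on their medians made 48.9% of calls point to cortex in place of 57.4%. Over the arrays left out in turn, the median lung slope ran from -3.92 to 0.57, and single lung slopes ran from -0.18 to 1.07 for Vwa1, -2.97 to 2.40 for Ttyh2 and -6.19 to 3.51 for Cd83. With pan-endothelial scaling Smoc2 changed sign to 0.87, Elovl1 to 0.13 and Lrrc8c to 0.02. With the sample number as a replicate block 3143 genes and 34 pathway genes were called. The labels do not say that equal numbers mark the same litter, so the numbers were not taken to pair the samples. The deviations of same-numbered samples correlated at 0.335 for 72, -0.162 for 22, 0.009 for 19 and 0.307 for 18, which does not settle the pairing. Slopes were not computed on the 2 arrays per tissue left without 19 and 18. The cause of these shifts was not tested.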
